A study of Mus musculus with 24 samples.

Results

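The 31 genes described here cover cholesterol synthesis, the sensing of sterols, cholesterol efflux and intracellular cholesterol transport. They were chosen by gene symbol from a list of pathway members, and all 31 were present in both deposited expression tables, which share 15572 genes. RNA-seq was done on mouse embryonic stem cells (mESC) and on neural progenitor cells (NPC) derived from them, with 6 genotypes per cell type and 2 libraries per genotype. The genotypes were wild type (WT), knockout of Htt (KO), and lines heterozygous for a knock-in Htt allele with 20, 50, 92 or 111 CAG repeats (Q20, Q50, Q92 and Q111). Htt is the gene whose CAG expansion causes Huntington's disease. Sample titles give the length of the Q92 allele as 92, whereas the growth protocol gives 89. The labels do not say whether the knockout removes 1 or both copies, and each genotype is represented by 1 named line. The mESC were grown with leukemia inhibitory factor on irradiated mouse fibroblast feeders, so feeder RNA can be part of those libraries. The NPC were obtained in N2B27 medium and then expanded on laminin with FGF and EGF. The series text calls the 2 libraries of a group biological samples without naming separate cultures, so p-values measure the spread between these samples, which may be technical.

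Cholesterol is built from acetyl-CoA through mevalonate to farnesyl diphosphate, then through squalene and lanosterol to the finished sterol. The enzymes are driven by SREBP transcription factors, which the protein Scap carries out of the endoplasmic reticulum when sterols are low and which the Insig proteins hold back when sterols are high. When oxysterols accumulate, liver X receptors switch on Abca1, Abcg1 and Apoe, which export and carry cholesterol. In the brain, astrocytes are a main source of cholesterol and of ApoE particles.

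The start regions of 4 members are shown because they contain TCACNCCA, the core of a sterol regulatory element, to which SREBP can bind. RefSeq promoters on GRCm38.p6 were matched for 25 of the 31 members and were searched on both strands over 300 bases, from 250 before to 50 after the start. TCACNCCA was found in 4 of the 25 (16%) and in 4.97% of 27025 genes. CCAAT, the box bound by NF-Y, was found in 20 of the 25 (80%) and in 41.1% of genes. The direct repeat of AGGTCA with a 4-base spacer, a liver X receptor element, was found in 0 of the 25 and in 4 of the 27025 genes. No printed motif overlapped another. The sequences run 5′ to 3′ on the gene's strand, and capitals mark TCACNCCA and CCAAT, the latter written ATTGG where it lies on the other strand. Bases in annotated exons are left out, except for Msmo1. Its TCACNCCA lies within an annotated exon, and only 30 bases that include the motif are printed.
Apoe, chr7:19699189-19699438, minus strand: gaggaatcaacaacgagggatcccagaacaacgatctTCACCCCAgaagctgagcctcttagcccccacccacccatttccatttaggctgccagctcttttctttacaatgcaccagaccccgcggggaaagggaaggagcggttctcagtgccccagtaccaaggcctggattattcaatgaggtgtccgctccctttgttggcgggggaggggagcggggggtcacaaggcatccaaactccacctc
Msmo1, chr8:64733728-64733757, minus strand: tcTCACTCCAtccgcgcagCCAATgactgg
Srebf2, chr15:82147019-82147180, plus strand: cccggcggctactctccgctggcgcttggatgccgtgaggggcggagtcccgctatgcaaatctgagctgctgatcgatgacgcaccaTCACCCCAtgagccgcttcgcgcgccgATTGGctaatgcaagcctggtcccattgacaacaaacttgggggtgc
Hmgcs1, chr13:119690101-119690350, plus strand: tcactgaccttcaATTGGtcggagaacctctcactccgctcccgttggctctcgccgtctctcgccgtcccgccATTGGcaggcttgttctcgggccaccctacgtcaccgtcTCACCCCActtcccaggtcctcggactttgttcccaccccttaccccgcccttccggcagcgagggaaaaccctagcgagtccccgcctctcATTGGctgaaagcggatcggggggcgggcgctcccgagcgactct
TCACNCCA lay 213 to 206 bases before the start of Apoe, 177 to 170 before Msmo1, 162 to 155 before Srebf2 and 137 to 130 before Hmgcs1. In the neural progenitors these 4 genes did not share a direction along the CAG series: Msmo1 rose, Apoe fell, and Srebf2 and Hmgcs1 did not pass the test.

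Between 48525333 and 118038952 reads were counted per NPC library and between 58546211 and 81502284 per mESC library. The deposited values are normalised CPM, read counts scaled to library size, which were compared here as log2(CPM + 1). Htt itself was at 137 and 177 CPM in the WT NPC libraries and at 100 and 94.9 CPM in KO. In mESC it was at 124 and 113 CPM in WT and at 139 and 68.5 CPM in KO. Htt RNA was thus not lower than in WT in the library labelled mESC KO replicate 1, and the label was kept. The mESC libraries expressed all 10 pluripotency markers examined, with a summed level of 2126 to 4045 CPM. In the NPC libraries 9 of 10 neural progenitor markers were measured, with a summed level of 2646 to 7181 CPM. Among them Sox1 was at 0 CPM in Q50 replicate 2 and Q92 replicate 2, and the tenth, Sox2, was not analysed here. NPC Q20 stood apart in Pou5f1 (90.1 and 87.4 CPM) and Nanog (13.0 and 13.7 CPM), and the other 10 NPC libraries had Pou5f1 at 0.405 CPM or less. Of the 10 pluripotency markers 6 had values in NPC, and the rest of these were not highest in Q20 or were scarce. Esrrb was at 0.721 and 0.751 CPM in Q20 and at 2.49 and 7.74 CPM in Q92. Klf4 was at 3.19 and 3.83 CPM in Q20 and at 13.2 and 18.5 CPM in Q92. Tdgf1 and Tfcp2l1 were under 1 CPM in every NPC library.

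Per kilobase of exon, Hmgcs1, which acts just before mevalonate is made, had the highest median level of the members in NPC, 300.1 CPM per kb over 12 libraries. Apoe, the main lipid carrier protein of the brain, had a median of 106 CPM per kb but ranged from 7.89 to 511, and it was above Hmgcs1 per kilobase in 5 of the 12 libraries: both of Q20 and replicate 1 of WT, KO and Q50. The median of Abca1 was 8.29 CPM per kb, with a range of 0.487 to 41.7 over lines that differed widely, and Abcg1 had the lowest median at 0.0574. In mESC the order was led by Apoe at 123 CPM per kb and Hmgcs1 at 64.7 CPM per kb, and Tm7sf2, Abca1 and Abcg1 were lowest at 2.16, 2.41 and 2.55 CPM per kb. Levels were not compared between the cell types because their tables were scaled separately.

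**Figure D1:**
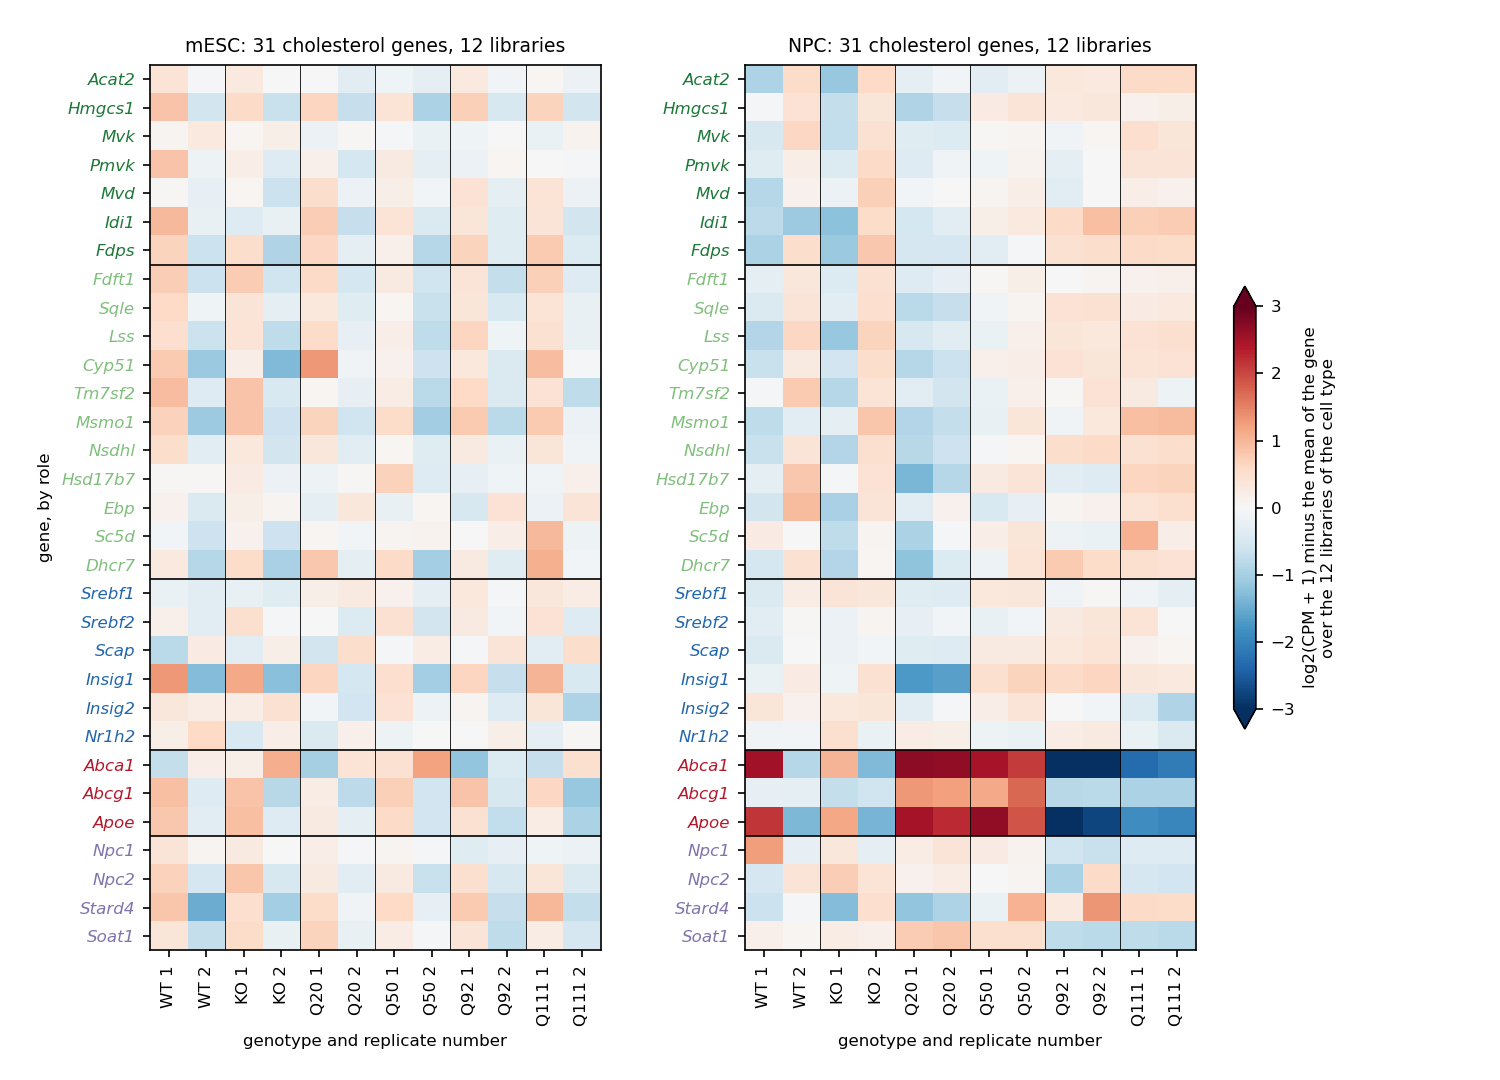
Each row is a member gene, grouped by role, and each column a library of mESC or NPC. The colour gives log2(CPM + 1) minus the gene's mean over the 12 libraries of that cell type and saturates at 3 in either direction. Replicates 1 and 2 differ in every mESC genotype, and Abca1 and Apoe are low in the 4 Q92 and Q111 NPC libraries.

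Along the CAG series in NPC, 15 of the 31 members changed: 10 rose and 5 fell. The 10 rising members were all synthesis enzymes, out of 18 enzymes measured, and the other 8 enzymes did not pass. The 5 falling members were the export genes Abca1, Abcg1 and Apoe, the esterifying enzyme gene Soat1, and Npc1. The test was a limma slope over the 8 knock-in libraries, called at an adjusted p under 0.05 over all 13206 genes tested, and each slope is given as the log2 change from 20 to 111 repeats. Of all genes, 22% were called, 12% higher and 10.1% lower. The median slope of the members was 0.60. The slope compares 4 lines only: with 1 mean value per line 0 members and 0 genes were called. Without the Q20 line 8 members and 14.2% of all genes were called, and 6 of the 8 were among the 15. Of the 10 rising enzymes only Acat2 and Fdps were still called then, against 4 of the 5 falling members (Abca1, Abcg1, Apoe and Soat1). Without Q20 replicate 1 or without Q20 replicate 2 the count was 10, with 9.19% and 11% of genes called. Srebf2, the SREBP that chiefly drives cholesterol synthesis, did not pass (0.49, SE 0.16, adjusted p = 0.0621), nor did Htt (-0.08, SE 0.15, adjusted p = 0.742).

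**Figure D2:**
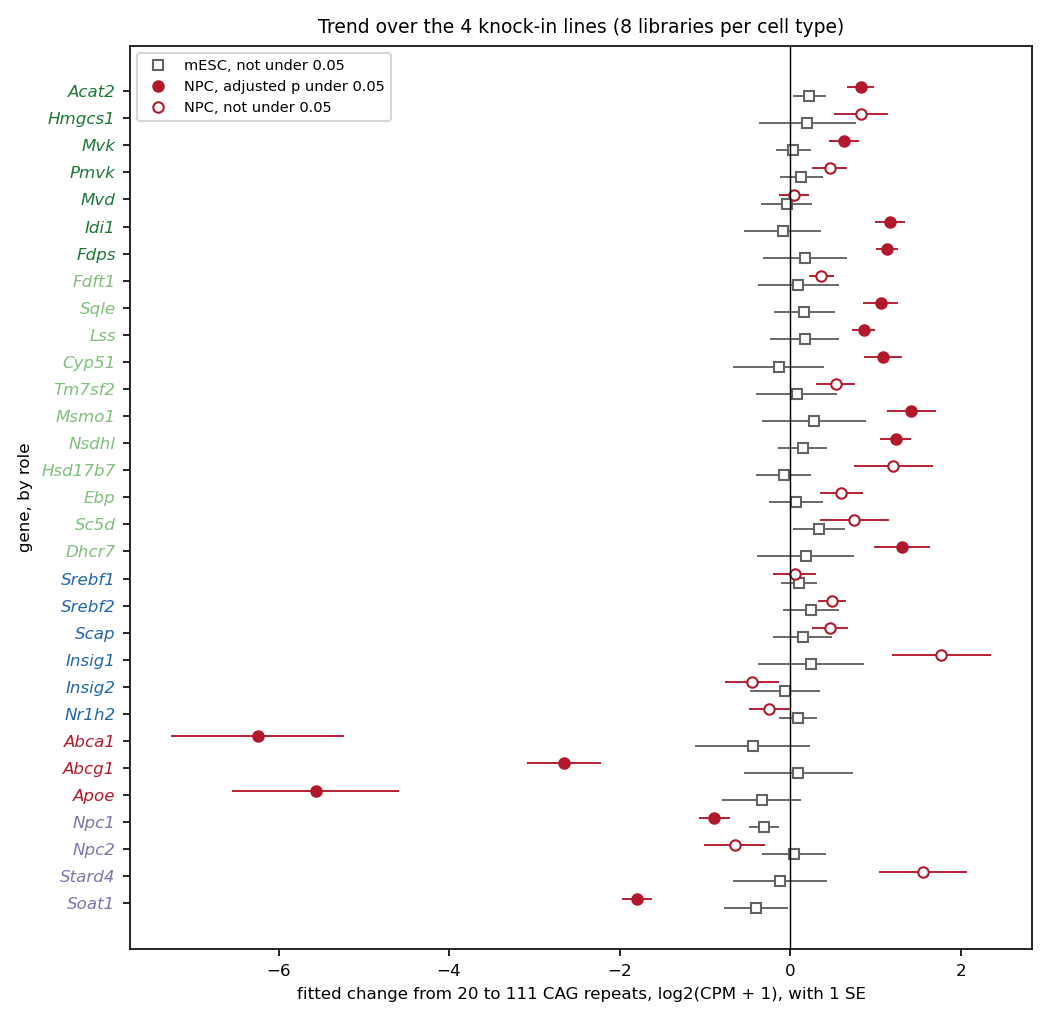
The horizontal axis gives the log2 change from 20 to 111 CAG repeats with 1 SE for each member, in mESC (squares) and NPC (circles, filled where the adjusted p was under 0.05). The NPC slopes of Abca1 and Apoe lie at -6.24 and -5.57, and the mESC slopes of all members lie between -0.44 and 0.34.

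Among the 7 enzymes from acetyl-CoA to farnesyl diphosphate, 4 rose along the CAG series and all 7 slopes were positive, with a median of 0.83. Fdps makes farnesyl diphosphate, the branch point towards sterols and protein prenylation. In replicates 1 and 2 it was at 216 and 219 CPM in Q20, 246 and 298 CPM in Q50, 424 and 448 CPM in Q92, and 459 and 452 CPM in Q111. The 4 lines followed the order of repeat length without overlap, and the slope was 1.14 (SE 0.13, adjusted p = 0.00139). Idi1, the isomerase that makes the substrate of Fdps, was at 71.8 and 83.0 CPM in Q20, 117 and 127 CPM in Q50, 155 and 194 CPM in Q92, and 170 and 177 CPM in Q111. Its slope was 1.17 (SE 0.17, adjusted p = 0.00363), with Q92 and Q111 overlapping. Acat2, a cytosolic thiolase that joins acetyl-CoA units at the head of the pathway, was at 193 and 221 CPM in Q20, 189 and 208 CPM in Q50, 296 and 289 CPM in Q92, and 353 CPM in both Q111 libraries. Q20 and Q50 overlapped and both longer lines lay above them, which gave a slope of 0.83. The last of the 4, mevalonate kinase (Mvk), had a slope of 0.63. Hmgcs1 (0.83), phosphomevalonate kinase Pmvk (0.46) and the decarboxylase Mvd (0.05) did not pass.

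Shared sequence limits some of these values. Of the 75-base stretches of exon, 33.9% in Acat2 also occur in Acat3 or Tcp1. In Idi1 23.6%, in Fdps 23.5% and in Hmgcs1 9.79% occur in other gene models. An antisense gene overlaps 557 bases of Hmgcs1, and whether the counting used strand is not given in the sources used here. Their levels are uncertain to that extent.

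All 11 enzymes from squalene to cholesterol had positive slopes in NPC, with a median of 1.06, and 6 rose. Nsdhl, which removes a carbon group at position C4 of the sterol ring, was at 69.7 and 80.2 CPM in Q20, 121 and 130.0 CPM in Q50, 179 and 186 CPM in Q92, and 172 and 178 CPM in Q111. Q20 was lowest, Q50 lay between, and the slope was 1.24 (SE 0.18, adjusted p = 0.0035). Lss, which closes the ring to give lanosterol, was at 127 and 143 CPM in Q20, 155 and 199 CPM in Q50, 231 and 224 CPM in Q92, and 244 and 249 CPM in Q111. The 4 lines followed the order of repeat length without overlap, with a slope of 0.87 (SE 0.13, adjusted p = 0.00427). The other risers were the C4 oxidase Msmo1 (1.42), the final reductase Dhcr7 (1.31), the lanosterol demethylase Cyp51 (1.09) and the squalene epoxidase Sqle (1.06). Hsd17b7, a sterol ketone reductase, was at 23.6 and 34.1 CPM in Q20, 75.4 and 82.2 CPM in Q50, 49.6 and 47.5 CPM in Q92, and 98.1 and 100.1 CPM in Q111. Q92 lay below Q50, and its slope of 1.21 did not pass. The slopes of Sc5d (0.75), Ebp (0.60), Tm7sf2 (0.53) and Fdft1 (0.36), the last of which makes squalene, did not pass either. In Fdft1, 21.8% of the 75-base stretches are shared with other genes, chiefly the antisense neighbour Ctsb, and in Tm7sf2 8.83% are shared with Vps51.

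None of the 6 sensors and transcription factors passed along the CAG series, although Insig1, Scap and Srebf1 passed in comparisons of single lines with Q20. Insig1, itself a target of SREBP that retains Scap, was at 45.7 and 48.4 CPM in Q20, 214 and 242 CPM in Q50, 227 and 239 CPM in Q92, and 193 and 188 CPM in Q111. Q20 was far below the other lines, and the slope of 1.77 missed the threshold (adjusted p = 0.061). Scap, the SREBP escort, was at 108 and 106 CPM in Q20, 167 and 169 CPM in Q50, 173 and 186 CPM in Q92, and 152 and 147 CPM in Q111. The longer lines lay above Q20 without overlap, but not in order of repeat length. An antisense gene overlaps 985 bases of Scap, and 8.27% of its 75-base stretches are shared with it. Srebf1, which mainly drives fatty acid synthesis, was at 249 and 241 CPM in Q20, 396 and 404 CPM in Q50, 296 and 327 CPM in Q92, and 294 and 264 CPM in Q111. Q50 was highest, Q111 lay closest to Q20, and the slope was 0.06. Srebf2 itself was at 123 and 140 CPM in Q20, 126 and 140 CPM in Q50, 177 and 190 CPM in Q92, and 197 and 149 CPM in Q111. Insig2 had a slope of -0.45 and the liver X receptor gene Nr1h2 one of -0.24.

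The 3 efflux and carrier genes all fell along the CAG series in NPC, and they did so as a step between Q50 and Q92. Abca1 (chr4:53030787-53159895, 50 exons in its longest coding transcript) encodes the membrane pump that loads cholesterol onto apolipoproteins. It was at 432 and 424 CPM in Q20, 373 and 287 CPM in Q50, 5.37 and 5.05 CPM in Q92, and 12.6 and 14.6 CPM in Q111. Its slope was -6.24 (SE 1.01, adjusted p = 0.0051). Apoe (chr7:19696109-19699188, 4 exons) was at 976 and 820 CPM in Q20, 1092 and 640 CPM in Q50, 16.9 and 24.6 CPM in Q92, and 46.7 and 43.8 CPM in Q111, with a slope of -5.57 (SE 0.98, adjusted p = 0.00684). Q20 and Q50 overlapped for Apoe but not for Abca1, and for both genes every Q92 and Q111 library lay below every Q20 and Q50 library. Abcg1 (chr17:31057675-31117988, 15 exons), which exports cholesterol to lipoprotein particles, was scarce throughout. It was at 3.75 and 3.54 CPM in Q20, 3.23 and 5.42 CPM in Q50, 0.0826 and 0.109 CPM in Q92, and had 0 reads in both Q111 libraries. A floor of 3 reads per library, 0.0406 and 0.0425 CPM, covers counting error only and makes Abcg1 at least 87.7-fold lower in Q111 than in Q20. Its slope was -2.65 (SE 0.43, adjusted p = 0.00529), a value that the added constant of 1 CPM compresses. Abcg1 reached 1 CPM only in Q20 and Q50, so it entered the tests only through the lines where it was high. Its calls are therefore no independent support. With a filter on a mean of at least 5 CPM it was left out, and the slope called 14 members and 22.2% of all genes.

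Of the 4 genes of intracellular transport and esterification, Soat1 and Npc1 fell in NPC along the CAG series. Soat1 (chr1:156424525-156474331, 16 exons) esterifies cholesterol for storage in lipid droplets. It was at 399 and 422 CPM in Q20, 330 and 328 CPM in Q50, 139 and 133 CPM in Q92, and 138 and 133 CPM in Q111. The levels formed 3 steps, with Q92 and Q111 overlapping, and the slope was -1.80 (SE 0.18, adjusted p = 0.000957). Npc1, which moves cholesterol out of lysosomes, was at 228 and 253 CPM in Q20, 230 and 210 CPM in Q50, 128 and 123 CPM in Q92, and 148 CPM in both Q111 libraries. Q92 and Q111 lay below Q20 and Q50, and the slope was -0.89. Stard4, a soluble sterol carrier, was at 24.0 and 29.0 CPM in Q20, 48.7 and 116 CPM in Q50, 69.2 and 142 CPM in Q92, and 83.5 and 82.7 CPM in Q111. Every longer line lay above Q20, but replicates of Q50 and Q92 were far apart, and the slope of 1.56 did not pass. Npc2, the soluble lysosomal partner of Npc1, had a slope of -0.65 that did not pass.

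**Figure D3:**
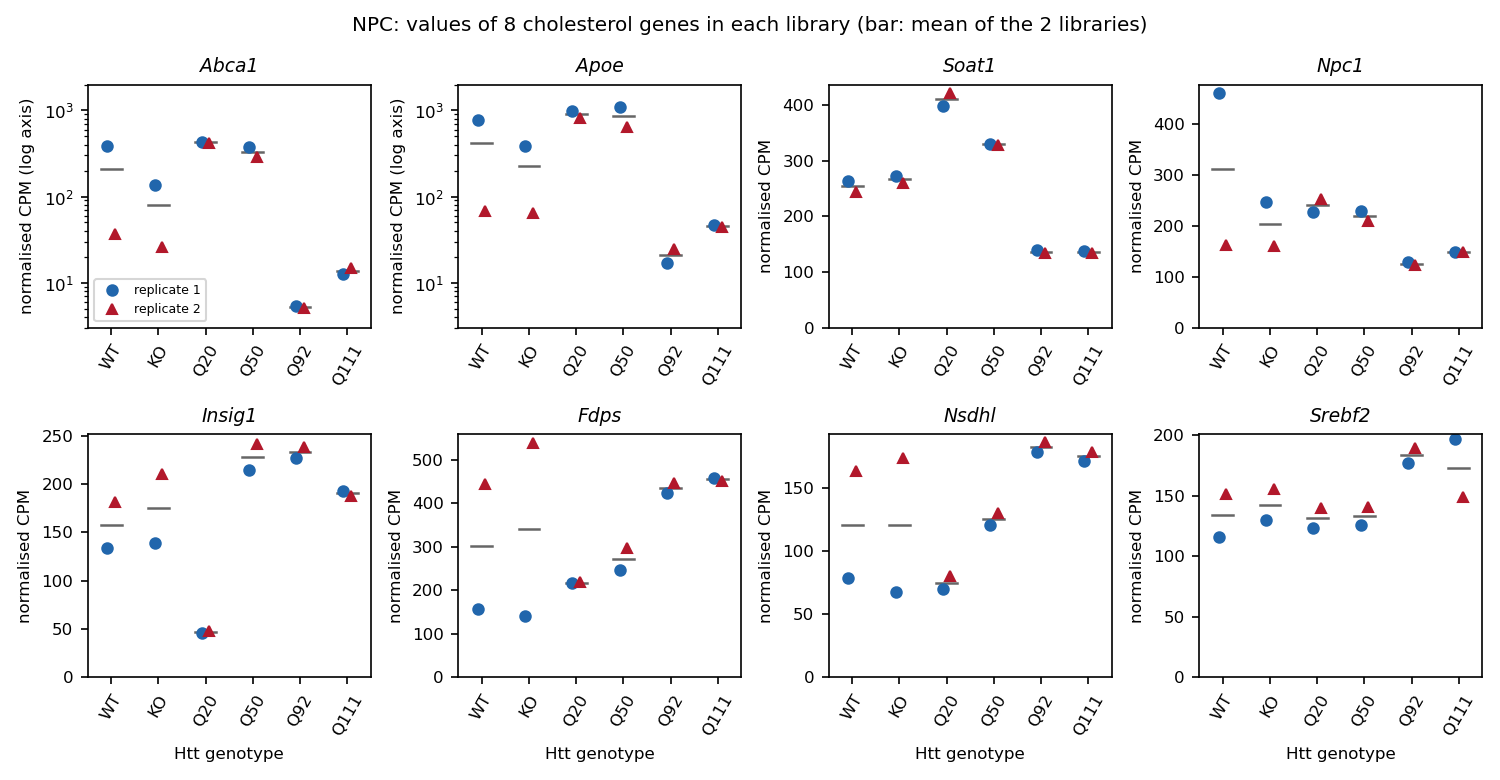
Normalised CPM in the 12 NPC libraries for 8 members, with 1 point per library and genotypes along the horizontal axis. Abca1 and Apoe are on log axes and the other genes on linear axes from 0. In Q92 and Q111, Abca1 sits between 5.05 and 14.6 CPM and Soat1 between 133 and 139 CPM.

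Markers of other cell types moved along the same lines. The summed level of 11 astrocyte markers was 5759 and 5459 CPM in Q20, 4934 and 3916 CPM in Q50, 1565 and 1811 CPM in Q92, and 1469 and 1570 CPM in Q111. Of these 11 markers, 6 fell along the CAG series (Aqp4, Glul, Aldoc, Slc1a2, Gfap and Fgfr3) and 0 rose, where 10.1% of all genes were called lower. Not all were low at long repeats, since Aldh1l1 was at 137 and 131 CPM in Q111. Sox9 was at 51.3 and 59.1 CPM in Q20, 67.0 and 46.1 CPM in Q92, and 68.6 and 69.7 CPM in Q111. The summed level of 10 fibroblast markers was 358 and 294 CPM in Q20, 1083 and 1061 CPM in Q50, 58.1 and 48.2 CPM in Q92, and 88.6 and 114 CPM in Q111. Of the 9 fibroblast markers tested 6 fell, where 10.1% of all genes were called lower. Of the 10, 8 were under 1 CPM in all libraries of Q92 and Q111. Col1a1 and Col1a2 passed the filter of 1 CPM only through Q20 and Q50, so the direction of their slopes was not free. The 6 pluripotency markers with values summed to 108 and 106 CPM in Q20 against 4.76 to 26.6 CPM in the other NPC libraries. The Q20 sum was chiefly Pou5f1 and Nanog. Their part in the slopes of the members was not tested. In such bulk samples, fewer cells of a type and less RNA per cell cannot be told apart.

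**Figure D4:**
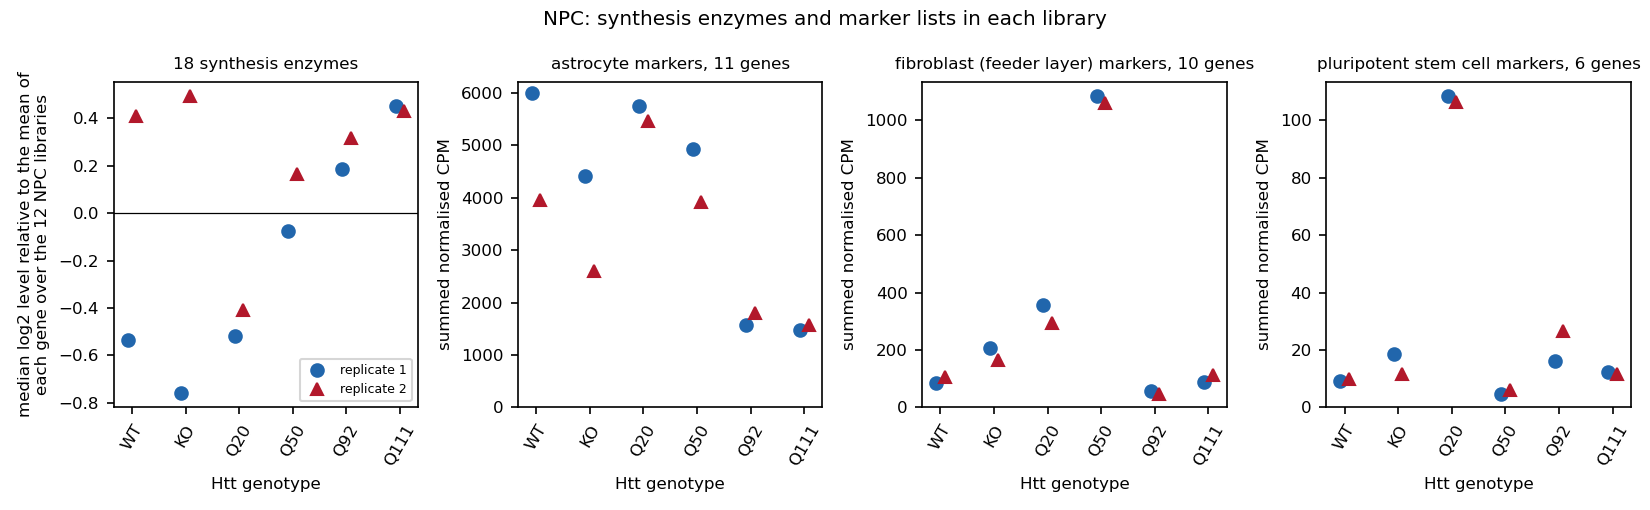
For each NPC library, the panels give the median over 18 synthesis enzymes of log2(CPM + 1) relative to each gene's mean, and the summed CPM of astrocyte, fibroblast and pluripotency markers. The enzyme median runs from -0.52 and -0.41 in Q20 to 0.45 and 0.43 in Q111, and the astrocyte sum is between 1469 and 1811 CPM in Q92 and Q111.

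Comparisons of single NPC lines asked whether each longer allele differed from Q20, and whether Q20 differed from WT. Q50, Q92 and Q111 share the Q20 libraries as control. Against WT, Q20 had low Insig1 and high Abcg1. Of the members 4 were called in Q20 against WT, where 14.5% of all genes were called, 9.97% higher and 4.57% lower. Abcg1 rose by 1.54 (SE 0.18, adjusted p = 0.000715) from 0.631 and 0.565 CPM in WT. It passed the filter of 1 CPM only through Q20 and Q50, where it was high. With a filter on a mean of at least 5 CPM it was left out, and 3 members and 7.66% of all genes were called. Soat1 rose by 0.69 (SE 0.10, adjusted p = 0.00199) from 264 and 243 CPM. Insig1 fell by 1.71 (SE 0.21, adjusted p = 0.00085) from 134 and 181 CPM, a 3.35-fold lower mean. Hsd17b7 fell by 1.37 (SE 0.33, adjusted p = 0.0276) from 51.3 and 110 CPM. For each of these 4 genes the Q20 and WT libraries did not overlap, as for 48.6% of all genes. The 11 enzymes from Fdft1, which makes squalene, to cholesterol all had negative changes, with a median of -0.59, and 1 of them passed. Srebf2 (-0.01, SE 0.19, adjusted p = 0.974) and Htt (0.00, SE 0.14, adjusted p = 0.999) did not. Without WT replicate 1 the count was 9, with Abca1, Apoe, Scap, Sqle and Srebf1 added, and the share of all genes called was 21.6%. In the same comparison 6 of 9 fibroblast and 2 of 4 pluripotency markers tested rose, and their part was not tested. Some of these markers passed the filter of 1 CPM only through lines where they were high. Pou5f1 did so through Q20 alone, and Col1a1 and Col1a2 through Q20 and Q50. Their direction against WT was thus not free, and these counts are no independent support.

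In Q50 against Q20, 5 members rose and 0 fell, where 18.8% of all genes were called, 8.05% higher and 10.7% lower. Insig1 rose by 2.25 (SE 0.21, adjusted p = 0.000162), a 4.85-fold higher mean. Scap rose by 0.64 (SE 0.15, adjusted p = 0.0175), Hsd17b7 by 1.44 (SE 0.33, adjusted p = 0.0187), Srebf1 by 0.71 (SE 0.19, adjusted p = 0.0343) and Hmgcs1 by 1.10 (SE 0.31, adjusted p = 0.0399). Hmgcs1 was at 644 and 740 CPM in Q20 and at 1410 and 1563 CPM in Q50, without overlap. The efflux genes did not pass. Srebf2 (0.02, SE 0.19, adjusted p = 0.962) and Htt (0.18, SE 0.14, adjusted p = 0.42) did not either. The count was 1 or 2 when any single library of the 4 was left out, with 9.53% to 10.8% of all genes called. Of 9 fibroblast markers tested 7 rose in Q50, and their part was not tested. Col1a1 and Col1a2 had passed the filter only through Q20 and Q50.

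In Q92 against Q20, 5 members rose and 4 fell, where 25.8% of all genes were called, 9.88% higher and 15.9% lower. Insig1 rose by 2.28 (SE 0.21, adjusted p = 0.000126), Scap by 0.74 (SE 0.15, adjusted p = 0.00789), Sqle by 1.21 (SE 0.31, adjusted p = 0.0232), Hmgcs1 by 1.10 (SE 0.31, adjusted p = 0.0323) and Dhcr7 by 1.48 (SE 0.43, adjusted p = 0.0357). Soat1 fell by 1.58 (SE 0.10, adjusted p = 1.72e-05), a 3.01-fold lower mean. Abcg1 fell by 2.08 (SE 0.18, adjusted p = 9.92e-05). Abca1 fell by 6.11 (SE 1.02, adjusted p = 0.00328), an 82.1-fold lower mean. Apoe fell by 5.39 (SE 1.09, adjusted p = 0.00863), a 43.3-fold lower mean. Srebf2 (0.48, SE 0.19, adjusted p = 0.0934) and Htt (0.17, SE 0.14, adjusted p = 0.384) did not pass. Of the 11 astrocyte markers 9 fell and 0 rose in this comparison, and their part was not tested.

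In Q111 against Q20, 6 members rose and 4 fell, where 28.3% of all genes were called, 12.2% higher and 16.1% lower. Insig1 rose by 2.00 (SE 0.21, adjusted p = 0.000312), Hsd17b7 by 1.77 (SE 0.33, adjusted p = 0.00645) and Msmo1 by 1.72 (SE 0.36, adjusted p = 0.0102). Msmo1 was at 162 and 182 CPM in Q20 and at 557 and 577 CPM in Q111. Sqle rose by 1.03 (SE 0.31, adjusted p = 0.041), Scap by 0.47 (SE 0.15, adjusted p = 0.0432) and Cyp51 by 1.18 (SE 0.37, adjusted p = 0.0456). Soat1 fell by 1.59 (SE 0.10, adjusted p = 2.08e-05) and Abcg1 by 2.22 (SE 0.18, adjusted p = 8.76e-05). Abca1 fell by 4.88 (SE 1.02, adjusted p = 0.00986), a 31.5-fold lower mean, and Apoe by 4.28 (SE 1.09, adjusted p = 0.0225), a 19.9-fold lower mean. Srebf2 (0.38, SE 0.19, adjusted p = 0.156) and Htt (-0.12, SE 0.14, adjusted p = 0.532) did not pass. The Q111 and Q20 libraries did not overlap for any of the 31 members, with 23 higher and 8 lower in Q111, where 78.2% of all genes did not overlap. Of the 11 astrocyte markers 7 fell and 0 rose, and their part was not tested.

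With WT in place of Q20 as the reference, fewer members were called. In Q50 against WT 1 member was called, Abcg1 (1.71 higher), where 6.62% of all genes were called. Abcg1 had passed the filter only through Q20 and Q50. In Q92 against WT 3 members were called, where 8.66% of genes were: Scap was 0.57 higher on the log2 scale, and the changes of Abca1 and Soat1 were -4.27 and -0.89. In Q111 against WT 5 members were called, where 16.6% of genes were. Idi1 and Msmo1 were 1.66 and 1.47 higher, and the changes of Soat1, Insig2 and Abcg1 were -0.89, -0.91 and -0.68. Soat1 thus fell in both longer lines against either reference. Insig1, called against Q20 in all 3 longer lines, changed by 0.55, 0.58 and 0.29 against WT and did not pass.

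Among WT and KO NPC, the replicates of each genotype were far apart in Abca1, Apoe and the enzymes. In KO against WT 0 members were called by limma, where 1.42% of all genes were called. Of the members 1 had an unadjusted p under 0.05, and edgeR called 0. Changes ran from -0.98 to 0.82, with Srebf2 at 0.10 (SE 0.19, adjusted p = 0.89) and Htt at -0.67 (SE 0.14, adjusted p = 0.0673). Abca1 was at 382 CPM in WT replicate 1 and 36.4 CPM in WT replicate 2, and at 135 and 26.0 CPM in KO. Apoe was at 770 and 67.6 CPM in WT and at 385 and 65.1 CPM in KO. The enzymes had the reverse order: Fdps was at 158 and 444 CPM in WT and at 141 and 539 CPM in KO. Abca1 and Apoe were higher in replicate 1 of both genotypes, and most enzymes were lower there: 16 of 18 in WT, with Idi1 and Sc5d the exceptions, and 18 of 18 in KO. The share of all genes lower in replicate 1 of WT or KO was not counted, so this is not shown to be particular to the enzymes. Deviations of same-numbered WT and KO libraries correlated at 0.467. Abcg1 did not follow Abca1 in KO, at 0.177 and 0.274 CPM. The median enzyme level relative to each gene's mean was -0.54 and 0.41 in WT and -0.76 and 0.49 in KO. The astrocyte sum was 5990 and 3960 CPM in WT and 4408 and 2608 CPM in KO, and Aqp4 was at 102 and 5.76 CPM in WT. Its part in the split was not tested. Over all 6 NPC genotypes, replicate 1 against 2 gave 0 called members and 0% of genes called by limma, with 8 members and 816 genes at an unadjusted p under 0.05. In all 6 genotypes alike, 7 members, all enzymes (Hmgcs1, Pmvk, Fdft1, Sqle, Msmo1, Nsdhl and Ebp), were lower in replicate 1 and 0 higher, where 4.82% of genes kept 1 sign.

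In mESC, 0 of the 31 members were called in any comparison of genotypes. All genes were called at 0.0144% in KO against WT, 0.323% in Q20 against WT, 0.00719% in Q50 against Q20, 0.00719% in Q92 against Q20 and 0% in Q111 against Q20, and at 0% along the CAG series. At an unadjusted p under 0.05, 1 member passed in Q20 against WT and 0 in each of the other 5 comparisons, and edgeR called 0 members in each. Slopes of the members from 20 to 111 repeats lay between -0.44 and 0.34, with a median of 0.10. Srebf2 changed by 0.30 in KO (SE 0.40, adjusted p = 1), by -0.12 in Q20 against WT (SE 0.40, adjusted p = 0.948), and against Q20 by 0.15 in Q50 (SE 0.40, adjusted p = 0.999), 0.29 in Q92 (SE 0.40, adjusted p = 1) and 0.22 in Q111 (SE 0.40, adjusted p = 0.999). Its slope was 0.24 (SE 0.33, adjusted p = 1). Htt changed by -0.28 in KO (SE 0.31, adjusted p = 1), by 0.17 in Q20 against WT (SE 0.31, adjusted p = 0.894), and against Q20 by -0.03 in Q50 (SE 0.31, adjusted p = 0.999), -0.41 in Q92 (SE 0.31, adjusted p = 1) and -0.48 in Q111 (SE 0.31, adjusted p = 0.999). The slope of Htt was -0.53 (SE 0.18, adjusted p = 1). Same-numbered mESC libraries deviated together, and with the replicate number as a block 10.6% of all genes were called in Q20 against WT, 0.984% in Q50, 0.46% in Q92 and 0.0575% in Q111 against Q20, 0.115% in KO against WT and 0% along the CAG series. Of the members 1 was called under the block, Abca1, higher in Q50 than in Q20, and the other 5 counts were 0.

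Many members did differ in mESC between replicates 1 and 2, a comparison added after the data were seen. In replicate 1, 20 members were higher and 3 lower, 23 in all, where 43.3% of all genes were called, 22.8% higher and 20.5% lower. The members' median difference was 0.71. In all 6 genotypes alike, 19 members were higher and 3 lower in replicate 1, where 41.4% of genes kept 1 sign. The labels do not say what the replicate number stands for.

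Synthesis enzymes and members of other roles were both among those called. Of the 18 enzymes 13 were higher in replicate 1 and 0 lower, where 22.8% of all genes were called higher and 20.5% lower. Hmgcs1 was at 525 and 198 CPM in WT, 437 and 183 CPM in KO, 459 and 180.3 CPM in Q20, 387 and 150.4 CPM in Q50, 482 and 207 CPM in Q92, and 465 and 199 CPM in Q111. Replicate 1 was 2.32 to 2.66 times replicate 2, without overlap over the 12 libraries (log2 difference 1.30, SE 0.05, adjusted p = 0.000106). Fdft1 (1.15, SE 0.08, adjusted p = 0.000124), Fdps (1.14, SE 0.08, adjusted p = 0.000136) and Msmo1 (1.45, SE 0.11, adjusted p = 0.000146) followed. The other enzymes called were Cyp51 (1.22), Dhcr7 (1.19), Tm7sf2 (1.03), Lss (0.92), Idi1 (0.83), Sqle (0.71), Nsdhl (0.62), Mvd (0.55) and Acat2 (0.30). Not called were Mvk (-0.15), Ebp (-0.28), Hsd17b7 (0.16), Sc5d (0.38) and Pmvk (0.43).

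Among the sensors, Insig1 was at 134 and 21.5 CPM in WT, 121 and 22.3 CPM in KO, 84.8 and 37.6 CPM in Q20, 77.4 and 26.0 CPM in Q50, 86.0 and 33.2 CPM in Q92, and 111 and 39.0 CPM in Q111. Its ratio of replicate 1 to 2 ran from 2.26 to 6.22, and the log2 difference was 1.75. Srebf2 was also higher (0.59, SE 0.10, adjusted p = 0.00262). Scap (-0.69, SE 0.13, adjusted p = 0.00371) and Nr1h2 (-0.39, SE 0.09, adjusted p = 0.0122) were lower in replicate 1. Srebf1 (0.17) and Insig2 (0.46) did not pass, and Htt differed by 0.35 (SE 0.12, adjusted p = 0.0508).

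The efflux genes split in mESC. Abca1 was at 12.8 and 25.2 CPM in WT, 24.7 and 46.9 CPM in KO, 10.4 and 28.9 CPM in Q20, 29.9 and 51.0 CPM in Q50, 9.03 and 16.01 CPM in Q92, and 13.0 and 30.4 CPM in Q111. It was lower in replicate 1 of every genotype (-0.98, SE 0.11, adjusted p = 0.000497), although the replicates overlapped across genotypes. Apoe was at 465 and 208 CPM in WT, 497 and 202 CPM in KO, 315 and 219 CPM in Q20, 392 and 176 CPM in Q50, 363 and 158 CPM in Q92, and 306 and 137 CPM in Q111. It was 1.44 to 2.46 times higher in replicate 1, and no replicate 2 library reached a replicate 1 library (log2 difference 1.079). Abcg1 was higher too (1.41), as were the transport genes Stard4 (1.42), Npc2 (0.96) and Soat1 (0.81), and Npc1 (0.15) did not pass. Of the pluripotency markers 5 of 10 were called, 1 higher and 4 lower in replicate 1. Of the 8 fibroblast markers tested 5 were called, 2 higher and 3 lower. Their part was not tested.

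**Figure D5:**
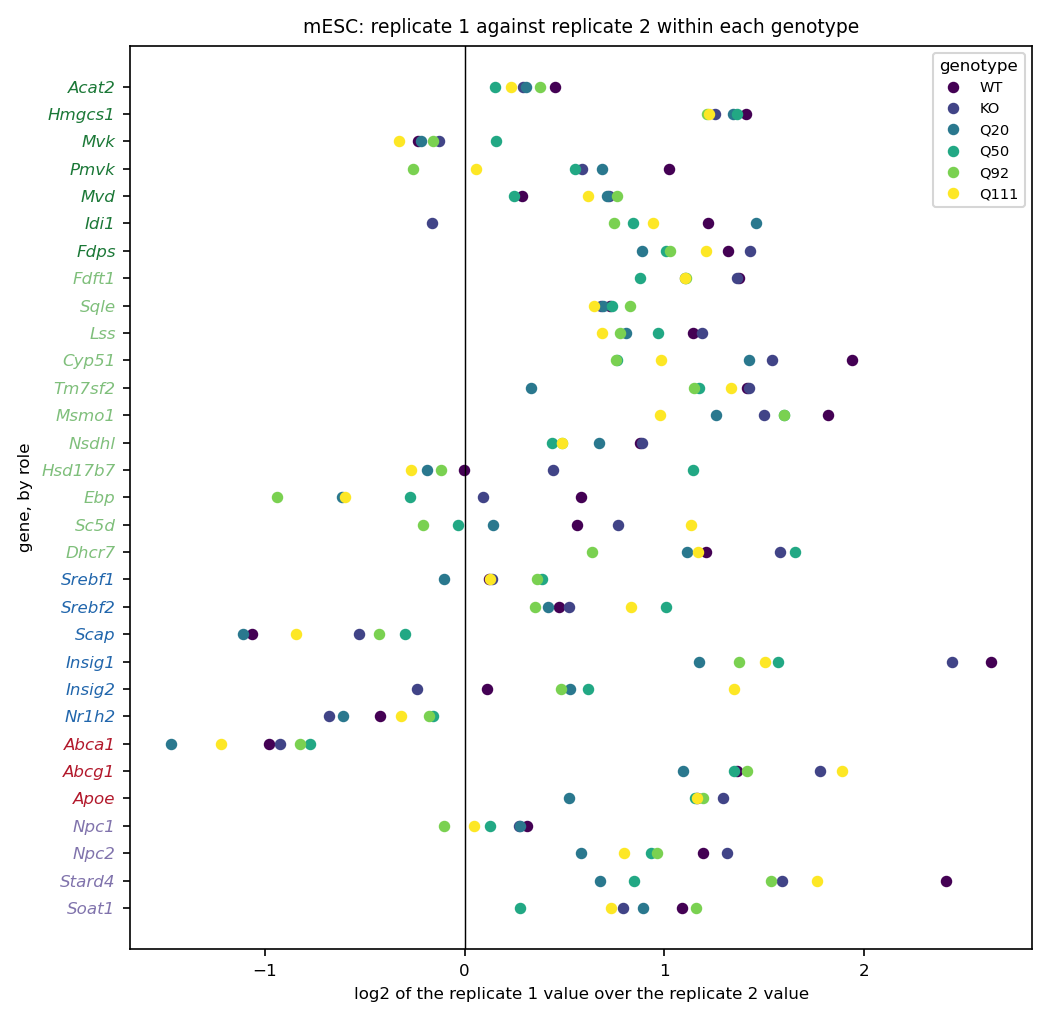
Log2 of the ratio of replicate 1 to replicate 2 in mESC for each member, with 1 point per genotype. The 6 points of Hmgcs1 lie close together above 0, with ratios of 2.32 to 2.66, and those of Abca1 lie below 0, with ratios of 0.361 to 0.585.

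The difference between the CAG slopes of NPC and mESC was tested over 12321 genes and the 16 knock-in libraries. Abca1 (-5.80, SE 1.29, adjusted p = 0.0196) and Apoe (-5.23, SE 1.14, adjusted p = 0.0182) had lower slopes in NPC, 2 members of 31, where 4.86% of all genes were called, 2.7% higher and 2.16% lower. All 18 enzymes had a positive difference, and 0 of them passed. Srebf2 (0.25, SE 0.38, adjusted p = 0.766) and Htt (0.45, SE 0.23, adjusted p = 0.289) did not pass. With the replicate number as a block, 7 members were called: Fdps, Idi1 and Nsdhl higher, and Abca1, Abcg1, Apoe and Soat1 lower, where 8.16% of all genes were called. Without the Q20 line 0 members and 1.83% of genes were called.

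Most of the 18 enzymes varied together within each cell type. Over 12 libraries, the correlation of each enzyme with the mean of the other 17 had a median of 0.863 in NPC, from 0.593 for Mvd to 0.963 for Nsdhl. In mESC the median was 0.869, with Nsdhl again highest at 0.978. Mvk (-0.458) and Ebp (-0.331) ran the other way there, and Hsd17b7 was at 0.249. These libraries share genotypes and the split between replicates, which in NPC was seen in WT and KO. No such correlation was computed for other genes, so these values are not shown to be particular to the enzymes.

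Other genes of the pathway were read from lists of sterol and isoprenoid genes, of uptake and transport genes, and of fatty acid synthesis genes under SREBP. Along the CAG series in NPC, 4 of 17 tested sterol and isoprenoid genes rose and 1 fell. Of all genes 22% were called along the same series, and the called shares of these lists were not tested against it. Pdss1, which builds the tail of coenzyme Q, rose by 1.32 (adjusted p = 0.00885), and Erlin1, an endoplasmic reticulum membrane protein, by 1.25 (adjusted p = 0.024). Mylip, a ubiquitin ligase acting on lipoprotein receptors, fell by 0.86 (adjusted p = 0.0178). Of 19 uptake and transport genes 1 rose, the lipoprotein receptor Scarb1 (0.83, adjusted p = 0.0245), and 5 fell. Among the latter were the endocytic receptor Lrp1 (-1.76, adjusted p = 0.00639) and the sterol transfer protein gene Gramd1b (-1.01, adjusted p = 0.00998). Of 12 fatty acid genes 2 rose, Fasn (0.82, adjusted p = 0.00586) and Acaca (0.60, adjusted p = 0.0209), which encode the synthase and the carboxylase before it. Gpam, which starts glycerolipid synthesis, fell by 1.68 (adjusted p = 0.000634).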

How the data were processed

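Total RNA of 24 libraries was sequenced as paired-end 75-base reads on an Illumina NextSeq 500, per the labels' protocols. CASAVA 1.8, STAR and the build GRCm38.p6 are named per the submitters' processing notes. The counting tool, its use of strand and the annotation are not given in the sources used here. The deposited values are a signal that the authors named CPM: counts scaled per library, with column totals of 900342 to 1080734, so they are not plain CPM. In each column 100% of the values tested were whole multiples of 1 read (within 0.01 of a read), so the reads could be recovered.

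The main test was that for normalised values: limma 3.58.1 in R 4.3.3 on log2(CPM + 1), with a variance trend, on genes at 1 CPM or more in at least 2 libraries (13916 in mESC, 13206 in NPC), with Benjamini-Hochberg adjustment over all of them and a threshold of 0.05. Pairs were fitted in a model of 12 libraries per cell type, slopes over 8. The script was tested on simulated data. Alternatives were edgeR 4.0.16 on the recovered reads, other scalings, filters and pseudocounts, WT as reference, omitted lines and libraries, a repeat length of 89, and the replicate number as a block. Deviations of same-numbered libraries correlated above 0.1 in 15 of 15 pairs of genotypes in mESC (0.25 to 0.547) and in 3 of 15 in NPC (-0.0495 to 0.467), so the numbers were taken to pair the libraries in mESC. In NPC the highest was between WT and KO, and the rule that every pair exceed 0.1 was not met. The main tests of genotypes and slopes did not use this pairing in either cell type. Their mESC standard errors and p-values therefore include the split between replicates, and the block was run as an alternative only.

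The members and lists were chosen with earlier results of these data known. Full statistics are given for members called in a comparison (where more than 10 were, for the 4 with the smallest adjusted p in each direction) and for Srebf2 and Htt. Levels per library go to up to 3 members per role with the smallest adjusted p, and each further list names up to 2 genes per direction. Other genes were named after their values were seen. Exons, overlaps and shared 75-base stretches came from GENCODE on GRCm38.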

Additional observations from a re-analysis of the deposited data

Results flagged for a closer look

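Abca1 and Apoe had CAG slopes in NPC that differed from those in mESC by -5.80 and -5.23 on the log2 scale, which passed the test of the difference itself. In 3 further cases the NPC libraries of a comparison all moved one way and the mESC libraries all moved the other way. Nr1h2 changed by 0.28 in NPC and by -0.52 in mESC in Q20 against WT. Srebf1 changed by 0.71 in NPC and by -0.29 in mESC in Q50 against Q20. Abca1 changed by -0.39 in NPC and by 1.12 in mESC in the same comparison. The difference between cell types was not tested in these 3 cases, and of the 6 changes only that of Srebf1 in NPC passed its own test. Such opposite moves were found for 6.97% of 12321 genes in Q20 against WT and for 9.53% in Q50 against Q20.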

How the results depend on the processing

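The number of members called depended on the libraries fitted. Fitted on the libraries of both groups alone, NPC comparisons called 2 members in Q20 against WT, 11 in Q50, 22 in Q92 and 24 in Q111 against Q20, where 3.6%, 29.7%, 46.6% and 50.8% of all genes were called. With WT as the reference the longer lines called 1, 3 and 5. The NPC slope called 0 members with 1 mean value per line and 8 without the Q20 line. The difference of slopes called 0 in both of these settings, and 7 with the replicate block. The block gave 1 member in mESC Q50 against Q20 and changed no other mESC count. Htt reversed to 0.13 in mESC Q50 with WT as reference and to 0.20 in the NPC slope without the Q111 line. The cause was not tested.

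Leaving out 1 library at a time moved the NPC counts to 0 to 2 in KO against WT (2 without WT replicate 2, where 11.9% of all genes were called instead of 1.42%), 3 to 9 in Q20 against WT (9 without WT replicate 1), 1 to 2 in Q50, 5 to 7 in Q92 and 3 to 5 in Q111 against Q20, and the count for the difference of slopes to 1 to 3. The NPC slope called 10 to 18, the fewest without either Q20 library. The share of all genes called moved too, so these counts do not concern the members alone. Against Q20 that share fell in Q50, Q92 and Q111 whichever library was left out. In the NPC slope the share was lowest without either Q20 library. Srebf2 ranged in mESC from -0.35 to 0.12 in Q20 against WT, from -0.35 to 0.65 in Q50 and from -0.20 to 0.63 in Q111 against Q20. In NPC it ranged from -0.092 to 0.29 in KO and from -0.21 to 0.18 in Q20 against WT, and from -0.071 to 0.11 in Q50 against Q20. In the difference of slopes it ranged from -0.015 to 0.44. Htt ranged from -0.78 to 0.22 in mESC KO against WT, from -0.26 to 0.19 in mESC Q50 against Q20, from -0.18 to 0.18 in NPC Q20 against WT and from -0.15 to 0.037 in the NPC slope.

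With 2 libraries per group, leaving 1 out assumes that the remaining library varies like the other groups. In NPC, where same-numbered WT and KO libraries correlated (0.467) but only 3 of 15 pairs of genotypes exceeded 0.1, the block called 0, 5, 7, 13 and 14 members in the 5 pairs and 14 in the slope. Of all genes, 1.1%, 14.5%, 19%, 27% and 30.1% were called in these pairs and 15.3% in the slope. With edgeR the NPC slope called 15 members and 20.7% of all genes. The mESC replicate comparison called 23 members and 42.4% of all genes with edgeR.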
